A study of Mus musculus with 6 samples.

Results

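Sebum, the oily secretion of the hair follicle's sebaceous gland, is made by cells that fill with lipid droplets and burst, and 10 genes of that lipid program were followed in RNA-seq of mouse skin. The genes were chosen by symbol, and all 10 (Scd1, Scd3, Elovl3, Fads2, Dgat2, Awat2, Soat1, Cidea, Mc5r and Krt79) were found, 1 row each, among the 35275 genes of the deposited tables. The study compared mice that lack interleukin-33 (IL-33 KO, 3 libraries) with wild-type mice (WT, 3 libraries). IL-33 is a cytokine held in epithelial nuclei and released on damage. All animals were C57BL/6 and all were painted on the back with the contact allergen dinitrofluorobenzene (DNFB), 0.25% in acetone and olive oil, 3 times a week for 22 days. Both groups thus carry the same treatment, and untreated skin is not analysed here. RNA came from the epithelial region of the back skin. Age, sex, how the Il33 allele was made and whether each library is a separate animal are not stated in the sources used here. P-values therefore measure only the spread between these libraries.

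Sebocytes build fatty acids, desaturate and elongate them, and esterify them to glycerol, fatty alcohols and cholesterol. This gives the triglycerides, wax esters and sterol esters of sebum. In mouse skin the desaturase Scd1 is the best known gene of the gland, and its loss shrinks the glands. Several genes of the program are not confined to the gland: Dgat2 and Krt79 are also expressed elsewhere in the epithelium, and Cidea and Elovl3 also in brown fat. These examples are not a full list of other sources, and adipocyte markers were counted in every library, as given below. The RNA is described as epithelial, but dermal fibroblast markers were also counted in every library, as given below. In RNA of such mixed material, fewer gland cells and less RNA per gland cell cannot be told apart.

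Total counts were 20459574 to 24359612 per library. Il33 itself was counted 21, 22 and 11 times in IL-33 KO 1, 2 and 3, against 3906, 3086 and 2817 in WT 1, 2 and 3, which matches the genotype labels. Krt14, a basal keratin, ranged over 12651 to 19521 CPM (counts per 1e6 of the TMM-scaled total) in IL-33 KO and over 15654 to 28810 CPM in WT, so keratinocytes are present in every library. Of 15720 genes with enough counts to be tested, 3 were called by edgeR's quasi-likelihood fit at a threshold of 0.05 on the adjusted p. Of these 2 were higher and 1 was lower in IL-33 KO. WT 3 stood apart from WT 1 and WT 2 for the sebaceous genes, as described below, and not for these alone. Over the whole table, the chi-square of counts per degree of freedom was 100.1 between WT 3 and WT 1. It was 89.6 between WT 3 and WT 2, against 42.2 between WT 1 and WT 2 and 33.2 between WT 3 and IL-33 KO 2. Values without WT 3 are given beside the results it bears on.

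Promoter sequence from RefSeq was at hand for 5 of the 10 genes. The 250 bases before the start site are shown for a pair that behaved differently from each other across libraries, Fads2 and Soat1, for Scd3, and for Fads3, which lies next to Fads2. Build GRCm38.p6 has the same coordinates as mm10. The Fads2 window is chr19:10101504-10101753 on the minus strand, and Fads3 is chr19:10041298-10041547 on the plus strand. Scd3 is chr19:44203038-44203287 on the plus strand, and Soat1 is chr1:156474329-156474578 on the minus strand. Sequences run 5′ to 3′ along the gene, and capitals mark matches on either strand to 4 motifs. These were the CCAAT box (CCAAT), the GC box (GGGCGG), the sterol regulatory element (TCACNCCAC) and the TATA box (TATAAA).
Fads2: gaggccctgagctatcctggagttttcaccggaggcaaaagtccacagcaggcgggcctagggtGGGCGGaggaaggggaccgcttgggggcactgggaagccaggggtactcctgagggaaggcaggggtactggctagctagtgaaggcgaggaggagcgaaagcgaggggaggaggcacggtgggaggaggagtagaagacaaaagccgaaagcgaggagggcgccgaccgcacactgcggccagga
Fads3: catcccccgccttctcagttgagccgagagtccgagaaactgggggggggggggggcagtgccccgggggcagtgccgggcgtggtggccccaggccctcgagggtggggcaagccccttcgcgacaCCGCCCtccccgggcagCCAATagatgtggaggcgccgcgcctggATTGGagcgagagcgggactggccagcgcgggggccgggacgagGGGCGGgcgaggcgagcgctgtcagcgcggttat
Soat1: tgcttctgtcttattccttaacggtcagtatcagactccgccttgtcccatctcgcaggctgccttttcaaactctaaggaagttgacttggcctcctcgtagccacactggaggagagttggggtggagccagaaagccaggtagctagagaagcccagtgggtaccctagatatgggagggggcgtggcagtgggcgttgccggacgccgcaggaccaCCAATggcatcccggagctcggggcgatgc
Scd3: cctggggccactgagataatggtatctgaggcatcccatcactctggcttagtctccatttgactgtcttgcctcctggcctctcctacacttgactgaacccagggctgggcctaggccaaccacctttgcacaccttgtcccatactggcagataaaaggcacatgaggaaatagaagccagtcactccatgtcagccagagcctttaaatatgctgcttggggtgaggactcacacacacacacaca
The Fads2 window holds 1 GC box and no CCAAT box, whereas the Fads3 window holds 2 of each and the Soat1 window holds 1 CCAAT box. No match to any of the 4 motifs was found in the Scd3 window. No window shown matched the sterol regulatory element or the TATA box. Among 32851 promoter windows of the same length, 33.8% hold a CCAAT box, 32.7% a GC box, 1.05% the sterol element and 12.4% the TATA box. A match is a description of the letters, and no binding was measured.

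The levels of the 10 genes spanned a wide range. Besides the chromosome 19 genes placed below, in mm10 Krt79 is at chr15:101929332-101940324, Dgat2 at chr7:99153663-99182713, Soat1 at chr1:156424525-156474331, Awat2 at chrX:100402221-100442717, Cidea at chr18:67343564-67367794 and Mc5r at chr18:68337603-68339711. By deposited FPKM (counts scaled by gene length and library total), which allows levels to be compared between genes, Krt79 was the most abundant. This keratin of the upper follicle and sebaceous duct averaged 600.1 ± 185 FPKM in IL-33 KO and 717 ± 257 FPKM in WT (SD, n = 3 each). Scd1 followed at 309 ± 111 FPKM in IL-33 KO and 248 ± 207 FPKM in WT. Next by FPKM came Dgat2, Elovl3, Cidea, Soat1, Fads2, Scd3, Awat2 and last Mc5r, at 4.57 ± 1.96 FPKM in IL-33 KO and 2.29 ± 2.05 FPKM in WT. Krt79 exceeded Scd1, Scd1 exceeded Dgat2, Elovl3 exceeded Cidea and Cidea exceeded Soat1 in all 6 libraries. Elsewhere neighbours changed places: Dgat2 was above Elovl3 in 4 libraries, Soat1 above Fads2 in 5, Fads2 above Scd3 in 4, Scd3 above Awat2 in 3 and Awat2 above Mc5r in 5. All 10 genes passed the filter on low counts, and the lowest count of any of them in any library was 26, for Mc5r in WT 1.

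None of the 10 genes passed the test between genotypes over all genes, where 0.0191% of tested genes passed in either direction. The point estimates split evenly, 5 above and 5 below 0 (IL-33 KO over WT). Their median was 0.088 on the log2 scale, beside -0.013 over all tested genes, of which 48.0% were higher. At an unadjusted p under 0.05 there was 1 of 10 (Fads2, higher), where 9.02% of all tested genes lie in either direction and 4.87% on the higher side. Fads2 was also the only gene whose genotypes did not overlap in CPM, where 13.9% of all tested genes have no overlap, 7.46% on the higher side. For the 10 genes a count of 1 is near what these background shares give. For 9 of the 10 genes the fold between the highest and the lowest WT library was larger than the fold between the genotype means. Among IL-33 KO libraries this held for all 10. Neither count was set beside the share over all tested genes, so they are not read as a trait of these genes.

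**Figure D1:**
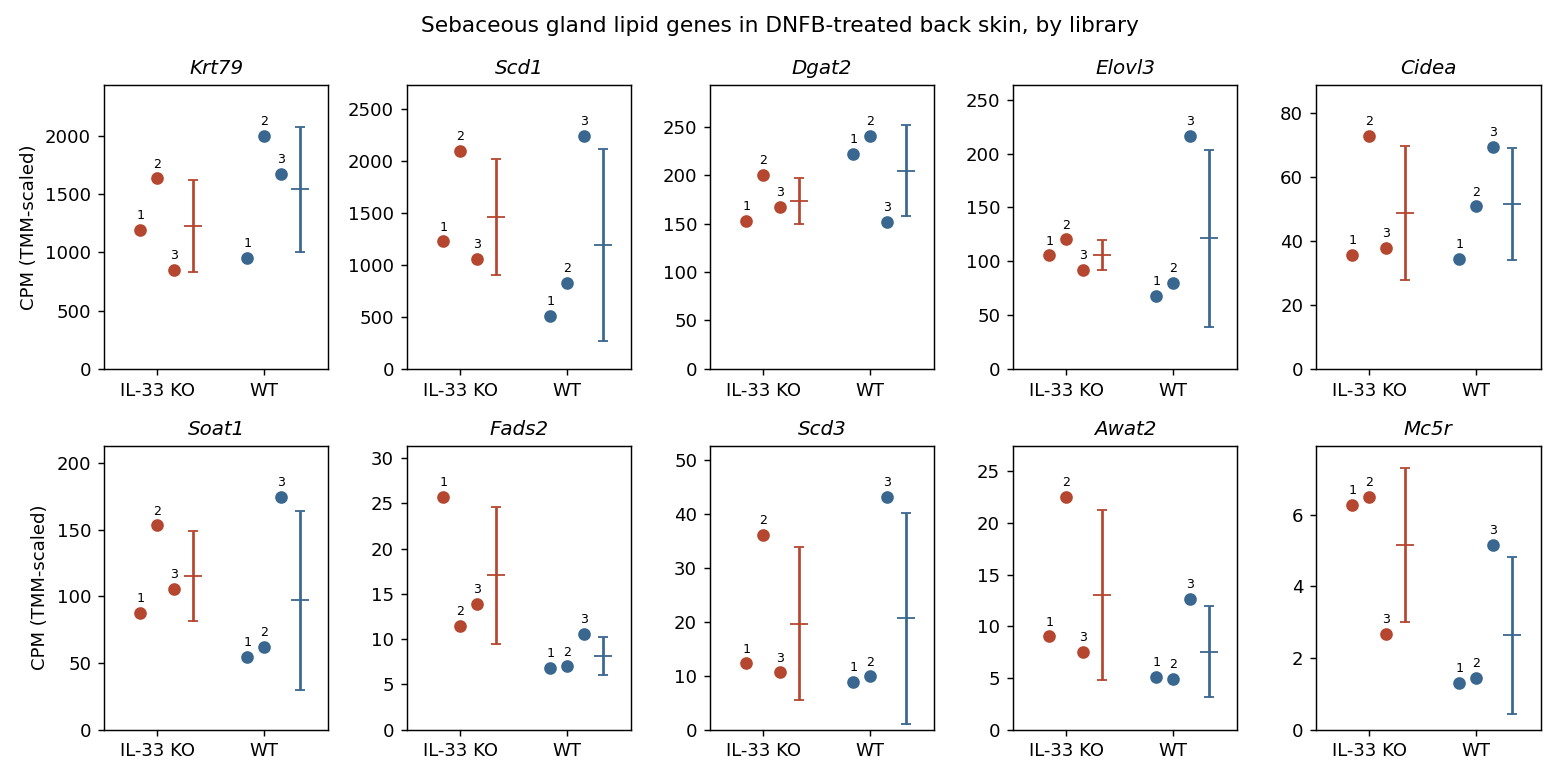
CPM (counts scaled to TMM library size) of each of the 10 genes in the 3 IL-33 KO libraries (red) and the 3 WT libraries (blue), with replicate numbers beside the points and mean ± SD at the right of each group. WT 3 is the highest WT library for 8 of the 10 genes, and the genotypes overlap for every gene but Fads2.

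The desaturases and the elongase come first in the program. Scd1 puts the double bond into saturated fatty acids. Its levels were 1225, 2096 and 1060 CPM in IL-33 KO 1, 2 and 3, against 509, 826 and 2237 CPM in WT 1, 2 and 3. WT 3 was above every IL-33 KO library while WT 1 and WT 2 were below every one, so the groups overlap through WT 3. The log2 fold change was 0.29 ± 0.52 (SE; 95% interval -0.90 to 1.49), with an adjusted p of 0.870 in edgeR. Scd3, a related desaturase of mouse sebaceous glands, measured 12.3, 36.1 and 10.6 CPM in IL-33 KO 1, 2 and 3, against 8.92, 9.87 and 43.2 CPM in WT 1, 2 and 3. IL-33 KO 2 and WT 3 were high and the other 4 libraries were low. Its log2 fold change was -0.072 ± 0.68 (adjusted p 0.978 in edgeR), with the widest interval of the 10 genes.

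Scd1 and Scd3 lie on chromosome 19 (mm10, 44394451 to 44407709 on the minus strand, and 44203288 to 44244016 on the plus strand), within 204.4 kb, and are close relatives. In GENCODE M21 transcripts, 4.56% of the 50-base stretches of Scd1 and 6.57% of those of Scd3 also occur in transcripts of other genes, most of them in each other. The sources used here do not say how such reads were divided. With the counts of Scd1 to Scd4 summed before the fit, the log2 fold change was 0.25 (adjusted p 0.852 in edgeR), but nearly all of that sum came from Scd1 and Scd2, so it bears on Scd1 and not on Scd3. By FPKM, Scd3 was 1.40%, 2.40% and 1.40% of Scd1 in IL-33 KO 1, 2 and 3, against 2.44%, 1.66% and 2.69% in WT 1, 2 and 3, with overlap between the groups.

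Elovl3 (chromosome 19, 46131897 to 46135307), the elongase of very long saturated and monounsaturated fatty acids, measured 105, 120.3 and 92.3 CPM in IL-33 KO 1, 2 and 3, against 67.8, 80.1 and 216 CPM in WT 1, 2 and 3. The IL-33 KO libraries lay close together, within a 1.30-fold range, and inside the 3.19-fold range of the WT libraries. The log2 fold change was -0.20 ± 0.40 (95% interval -1.12 to 0.73; adjusted p 0.890 in edgeR). Scd1, Scd3 and Elovl3 put the 6 libraries in the same order. It ran from WT 3 through IL-33 KO 2, 1 and 3 to WT 2 and WT 1.

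Fads2 had the smallest p of the 10 genes. It encodes the desaturase that starts the conversion of dietary essential fatty acids to long polyunsaturated ones. In human sebaceous glands it also makes sapienic acid from palmitic acid. Its levels were 25.7, 11.5 and 13.9 CPM in IL-33 KO 1, 2 and 3, against 6.85, 6.99 and 10.6 CPM in WT 1, 2 and 3. Every IL-33 KO library was above every WT library, but IL-33 KO 2 and WT 3 lay close together. The mean was 2.09 times as high in IL-33 KO, a log2 fold change of 1.06 ± 0.33 (95% interval 0.31 to 1.81). It ranked 391 by p among the tested genes, with an unadjusted p of 0.0115 and an adjusted p of 0.462 in edgeR. An exact two-sided permutation of the 6 log2 CPM values gave p = 0.1, and 3 against 3 allows no smaller one. Without IL-33 KO 1, which had the highest level, the log2 fold change was 0.64 (adjusted p 0.958 in edgeR). Over the other edgeR fits that left out 1 library it lay between 0.95 and 1.30, and DESeq2 gave an adjusted p of 0.0862.

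Fads2 (chromosome 19, 10064164 to 10101503, minus strand, shown above) lies between Fads3 and Fads1, 2 further fatty acid desaturase genes, in a cluster of 155.3 kb. Its end is 19.8 Mb from Il33 on the same chromosome. Fads1, which makes the next double bond of the polyunsaturated chain, measured 50.1, 38.9 and 44.1 CPM in IL-33 KO 1, 2 and 3, against 25.8, 29.2 and 37.0 CPM in WT 1, 2 and 3, also without overlap. Its log2 fold change was 0.53 ± 0.17 (adjusted p 0.465 in edgeR). Fads3 measured 116, 86.9 and 62.3 CPM in IL-33 KO 1, 2 and 3, against 45.9, 72.2 and 60.8 CPM in WT 1, 2 and 3, with overlap (log2 fold change 0.57 ± 0.25, adjusted p 0.552 in edgeR). The estimates of all 3 genes were above 0 in every fit run, and none of them passed in any. Of the 50-base stretches of Fads2 transcripts, 0.152% are shared with another gene, Fads3.

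In Fads2 the libraries ran in another order than in Scd1, from IL-33 KO 1 through 3 and 2 to WT 3, 2 and 1. The anagen hair follicle markers, 16 keratin, trichohyalin and regulator genes of the growing follicle, were also highest in IL-33 KO 1. Their mean relative log2 CPM was 1.55, 0.59 and 0.83 in IL-33 KO 1, 2 and 3, against -0.92, -1.87 and -0.18 in WT 1, 2 and 3. The first 4 libraries come in the same order in both, and the part of hair follicle content in the Fads2 difference was not tested.

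The esterifying enzymes differed among themselves. Awat2 joins fatty acids to fatty alcohols to make wax esters. Its levels were 9.02, 22.5 and 7.55 CPM in IL-33 KO 1, 2 and 3, against 5.09, 4.89 and 12.7 CPM in WT 1, 2 and 3. IL-33 KO 2 was the highest and WT 3 the next, so the groups overlap. The log2 fold change was 0.78 ± 0.51 (95% interval -0.38 to 1.95, adjusted p 0.658 in edgeR). With 1 library left out it ranged from 0.13 (without IL-33 KO 2) to 1.38 (without WT 3). Soat1, which esterifies cholesterol, measured 87.8, 153 and 106 CPM in IL-33 KO 1, 2 and 3, against 54.8, 62.0 and 175 CPM in WT 1, 2 and 3. As in Scd1, WT 3 was above and WT 1 and WT 2 were below all IL-33 KO libraries (log2 fold change 0.25 ± 0.44, adjusted p 0.869 in edgeR).

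Dgat2, which makes triglycerides by the last acylation step, went the other way across libraries. Its levels were 153, 199.9 and 167 CPM in IL-33 KO 1, 2 and 3, against 222, 240.3 and 151 CPM in WT 1, 2 and 3. WT 1 and WT 2 were the highest libraries and WT 3 was the lowest. The log2 fold change was -0.24 ± 0.20 (95% interval -0.69 to 0.21; adjusted p 0.721 in edgeR). The interfollicular epidermis markers, 8 genes such as Krt10 and Flg, were likewise highest in WT 2 and WT 1, with a summed level of 70951 and 65397 CPM. They were lower in WT 3 (41401 CPM) and in IL-33 KO 1, 2 and 3 (29635, 50166 and 49872 CPM). Their part in the Dgat2 values was not tested. Per length, Awat2 was 6.69%, 12.8% and 5.11% of Dgat2 in IL-33 KO 1, 2 and 3, against 2.60%, 2.31% and 9.49% in WT 1, 2 and 3.

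The remaining genes were those of lipid storage, hormone sensing and the duct. Cidea, a lipid droplet protein that lets droplets fuse, measured 35.5, 72.6 and 37.9 CPM in IL-33 KO 1, 2 and 3, against 34.3, 50.7 and 69.2 CPM in WT 1, 2 and 3. IL-33 KO 2 and WT 3 were again the highest 2 libraries (log2 fold change -0.079 ± 0.33, adjusted p 0.950 in edgeR). The brown fat marker Ucp1 had 0 to 3 counts in each library. The 10 other adipocyte markers listed had counts in every library, among them Fabp4 at 244 ± 78.1 CPM in IL-33 KO and 151 ± 102 CPM in WT. The part of fat in the Cidea values was not tested. Cidea overlaps the transcript B430212C06Rik on the opposite strand, which had 249 counts over the 6 libraries, and the sources used here do not say whether strand was counted. Mc5r, the melanocortin receptor of sebaceous and other exocrine glands, measured 6.28, 6.50 and 2.66 CPM in IL-33 KO 1, 2 and 3, against 1.31, 1.44 and 5.17 CPM in WT 1, 2 and 3. WT 3 lay between the IL-33 KO libraries. Its log2 fold change was 0.95 ± 0.57 (95% interval -0.36 to 2.26, adjusted p 0.635 in edgeR). With 1 library left out it ranged from 0.64 (without WT 1) to 1.90 (without WT 3, adjusted p 0.101 in edgeR). Krt79 measured 1194, 1632 and 850 CPM in IL-33 KO 1, 2 and 3, against 951, 1995 and 1670 CPM in WT 1, 2 and 3, with the lowest library in IL-33 KO and the highest in WT (log2 fold change -0.33 ± 0.32, adjusted p 0.762 in edgeR).

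**Figure D2:**
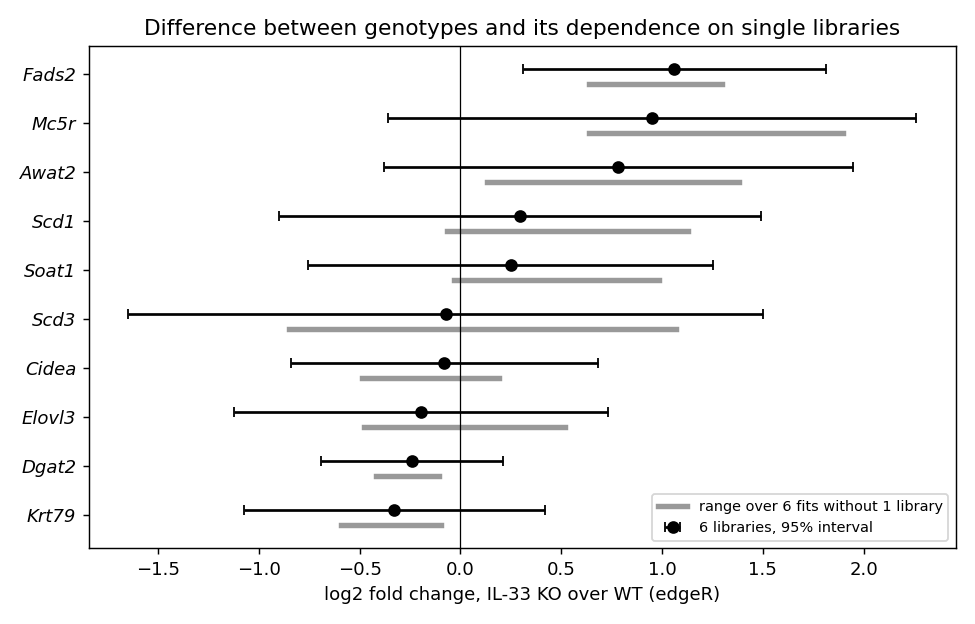
Log2 fold change of each gene, IL-33 KO over WT, with its 95% interval from edgeR on the 6 libraries (black), above the range of the estimate over the 6 fits that each left out 1 library (grey). The interval of Fads2, 0.31 to 1.81, is the only one that does not reach 0, before any adjustment for the number of genes.

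The libraries of a genotype differed from each other, and in a pattern that several of the genes shared. IL-33 KO 2 and WT 3 were the highest 2 libraries for 6 of the 10 genes, and WT 1 was the lowest for 7. How often this holds over all tested genes was not counted. The 10 genes together took 0.306%, 0.436% and 0.237% of all counts in IL-33 KO 1, 2 and 3, against 0.173%, 0.308% and 0.480% in WT 1, 2 and 3. In every library most of these counts came from Krt79 and Scd1, so the share says little about the other genes. The correlation of each gene's log2 CPM with the mean of the other 9 over the 6 libraries, given as a description, was 0.97 for Scd1 and 0.93 for Scd3. It was 0.89 for Soat1, 0.88 for Awat2, 0.82 for Cidea, 0.81 for Elovl3 and 0.79 for Mc5r. Krt79 (0.46), Fads2 (0.15) and Dgat2 (-0.56) shared the pattern least.

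The estimates of most of the genes depended on WT 3. Without WT 3, 8 of 10 genes had no overlap between the genotypes, 7 higher and 1 lower (Dgat2) in IL-33 KO, where 36.5% of all tested genes had none, 18.2% on the higher and 18.3% on the lower side. The median log2 fold change of the 10 genes was then 1.02, beside 0.0023 over all tested genes. It was -0.18 without IL-33 KO 2 and -0.12 without WT 1, each with 3 genes higher and 7 lower. None of the 10 passed an adjusted p of 0.05 without WT 3 either, the smallest being 0.101 for Mc5r in edgeR, against 24 genes that passed over the whole table. Without WT 3 the estimate was 1.13 for Scd1 and 0.98 for Soat1, against -0.065 and -0.031 without WT 1 and -0.061 and -0.0091 without IL-33 KO 2. Leaving out IL-33 KO 3 gave 2 genes without overlap, and leaving out WT 1 also 2, where 28.6% and 22.6% of all tested genes had none. In each fit that left out another library (IL-33 KO 1, IL-33 KO 2 or WT 2) there was 1, beside 19.9%, 22.8% and 20.5% of all tested genes. In WT 3 the dermal fibroblast markers were also at their highest, with a summed level of 22468 CPM. They summed to 12432 and 14503 CPM in WT 1 and WT 2, and to 11716 to 13742 CPM in IL-33 KO. The part of tissue makeup in the WT 3 values was not tested.

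**Figure D3:**
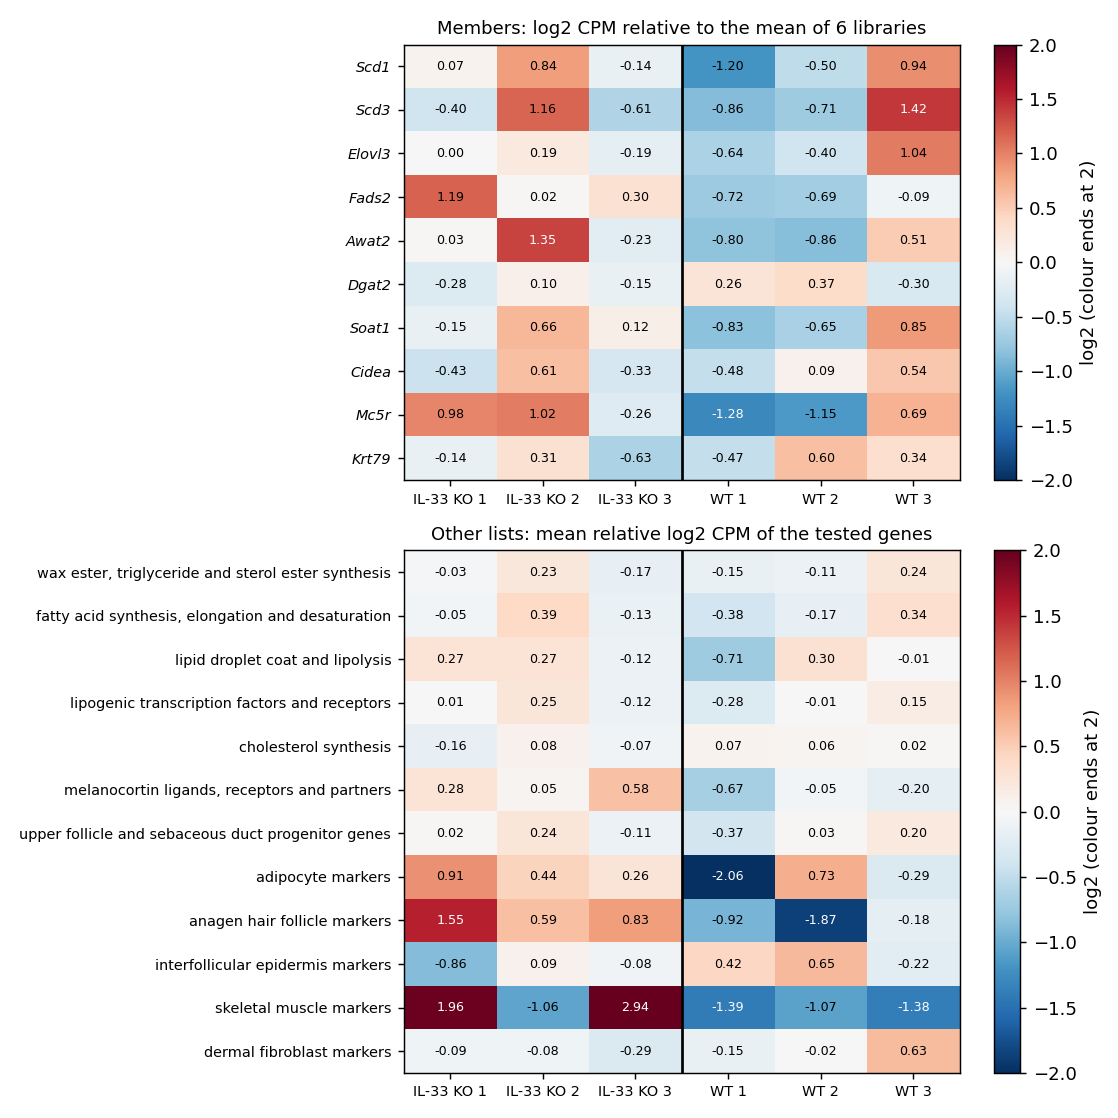
Log2 CPM of each gene relative to its mean over the 6 libraries, with nothing added to the CPM (upper panel). The lower panel gives the mean relative log2 CPM over the tested genes of each other list, computed with a prior count of 2. This added count narrows the differences of genes with few counts, so the panels are not on exactly the same scale. IL-33 KO libraries are left of the line and WT libraries right of it. Scd1 reads 0.84 in IL-33 KO 2 and 0.94 in WT 3, against -1.20 in WT 1, while the hair follicle markers are highest in IL-33 KO 1 (1.55).

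The genes whose log2 CPM was most like the mean of the standardized values of the 10 genes over the 6 libraries were Xylt2 (r = 0.998), Tmem8b (0.995), Ankrd27 (0.993), Gm5538 (0.991) and Pink1 (0.991). With so many genes and only 6 points, high values of r arise readily, and no p is given. Gm5538 had the widest range of the 5, with 10.6, 24.7 and 6.82 CPM in IL-33 KO 1, 2 and 3, against 4.33, 6.07 and 25.7 CPM in WT 1, 2 and 3. None of the 5 passed the test between genotypes (smallest adjusted p 0.796 in edgeR, for Pink1).

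Beyond the 10 genes, no gene of the lipid synthesis, droplet and regulator lists passed over all genes in any fit run. Of 18 other tested genes of wax ester, triglyceride and sterol ester synthesis, 9 were estimated higher and 9 lower (IL-33 KO over WT), around a median of 0.0051 on the log2 scale. That median was -0.16 without IL-33 KO 2 (7 higher, 11 lower) and 0.16 without WT 3 (12 higher, 6 lower). The smallest p were those of the phosphatidic acid phosphatase gene Lpin3, at 52.3 ± 11.5 CPM in IL-33 KO and 41.0 ± 2.17 CPM in WT, and the acyltransferase gene Agpat2, at 40.8 ± 8.34 CPM against 34.0 ± 3.18 CPM (adjusted p 0.584 and 0.651 in edgeR; SD, n = 3 each). Of 19 tested genes of fatty acid synthesis, elongation and desaturation, 10 were estimated higher and 9 lower, with a median of 0.13, and Fads1 and Fads3 had the smallest p. This split depended on single libraries: the median was -0.20 when IL-33 KO 2 was left out (7 higher, 12 lower), -0.12 without WT 1 (7 higher, 12 lower) and -0.059 without WT 2 (8 higher, 11 lower). Without WT 3 it was 0.39 (14 higher, 5 lower). In both lists, as in Scd1, the summed level was highest in IL-33 KO 2 (1445 and 5372 CPM) and in WT 3 (1477 and 5233 CPM).

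Cholesterol synthesis genes had 5 estimates higher and 15 lower of 20 tested (median log2 fold change -0.15), and with total counts as the scale 6 were higher and 14 lower (median -0.069). Without 1 library the median lay between -0.19 (WT 3 left out) and -0.085 (IL-33 KO 1 left out). Ebp, a sterol isomerase, averaged 64.7 ± 9.63 CPM in IL-33 KO and 88.6 ± 20.3 CPM in WT (SD, n = 3 each), and Nsdhl, a sterol dehydrogenase, 31.1 to 36.5 CPM in IL-33 KO and 36.4 to 45.9 CPM in WT (adjusted p 0.547 and 0.622 in edgeR). Among 15 lipogenic regulators 7 were estimated higher and 8 lower (median -0.0045), with a median of -0.10 without IL-33 KO 2 (4 higher, 11 lower) and 0.061 without WT 3 (10 higher, 5 lower). Insig1, which restrains sterol-driven transcription, measured 110, 117 and 74.7 CPM in IL-33 KO 1, 2 and 3, against 55.4, 57.6 and 90.8 CPM in WT 1, 2 and 3, with overlap through WT 3 (adjusted p 0.547 in edgeR). Nr1h2, which encodes a liver X receptor, averaged 65.9 ± 5.10 CPM in IL-33 KO and 76.2 ± 11.3 CPM in WT (adjusted p 0.668 in edgeR). Lipid droplet and lipolysis genes were split between 7 higher and 5 lower of 12 tested (median 0.071), and the median was below 0 when IL-33 KO 2 (-0.13) or WT 1 (-0.047) was left out and was 0.20 without IL-33 KO 3. Plin2, a droplet coat protein, averaged 151 ± 16.3 CPM in IL-33 KO and 178 ± 28.2 CPM in WT, and Plin4 36.9 ± 17.1 CPM in IL-33 KO and 21.8 ± 13.0 CPM in WT (adjusted p 0.668 and 0.674 in edgeR).

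**Figure D4:**
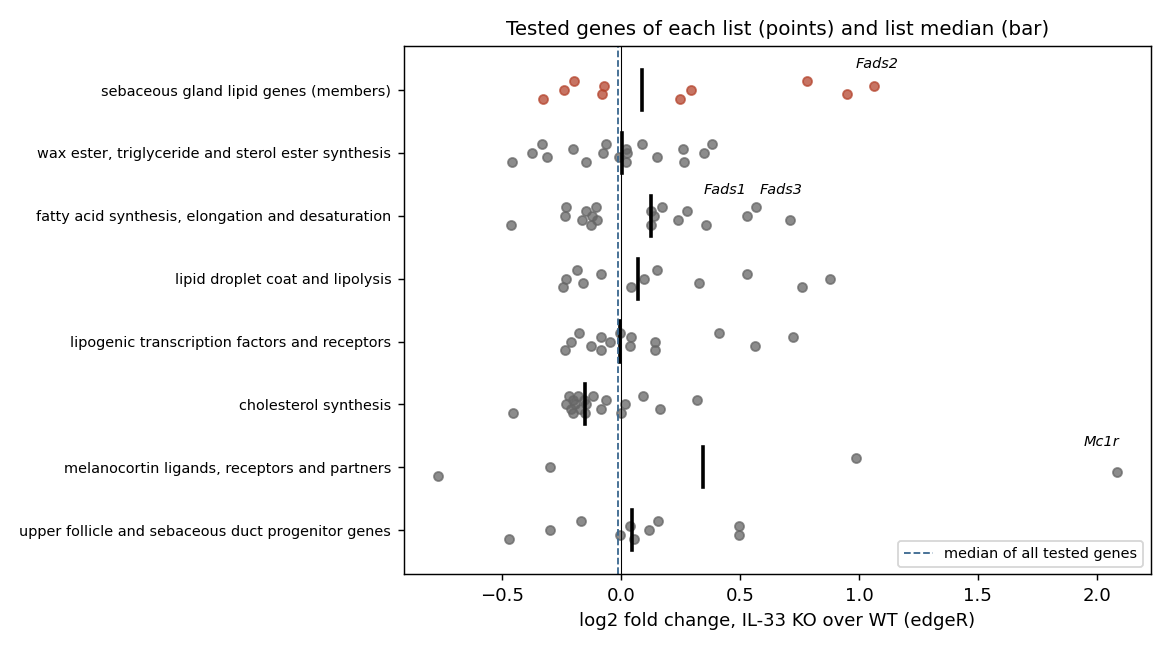
Log2 fold change, IL-33 KO over WT, of each tested gene (points) in the list of 10 genes (red) and in 7 lists of related pathways (grey), with the median of each list as a bar and that of all tested genes, -0.013, as a dashed line. With all 6 libraries the medians of the lipid lists lie between -0.15 (cholesterol synthesis, 5 higher and 15 lower) and 0.13 (fatty acid synthesis, elongation and desaturation). Fads2 and Mc1r lie farthest to the right in their lists.

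Of the melanocortin system, in which Mc5r is the receptor of the gland, 4 of 9 other genes had enough counts to be tested, 2 estimated higher and 2 lower (median log2 fold change 0.35). Over the fits without 1 library, in which 4 or 5 genes were tested, the median ranged from -0.097 (WT 1 left out) to 0.84 (IL-33 KO 3 left out). Mc1r, the receptor of pigment cells, had the smallest p. Its levels were 4.30, 3.08 and 5.61 CPM in IL-33 KO 1, 2 and 3, against 0.504, 0.393 and 2.09 CPM in WT 1, 2 and 3, without overlap. Its log2 fold change was 2.08 ± 0.59 (adjusted p 0.434 in edgeR). Mc1r passed in DESeq2 (adjusted p 0.0208) and in edgeR without WT 3 (adjusted p 0.0451). In DESeq2 0.976% of the 23874 genes with any count passed, a wider set than the 15720 genes tested in edgeR. Agrp, a melanocortin antagonist, averaged 0.816 ± 0.280 CPM in IL-33 KO and 1.40 ± 0.385 CPM in WT (SD, n = 3 each; adjusted p 0.586 in edgeR). The melanocortin precursor gene Pomc had 2 to 5 counts in IL-33 KO and 6 to 8 in WT, too few to be tested, and Mc3r had 0 in every library. Krt79 is expressed in the upper follicle and duct, and 10 other follicle genes were listed beside it. Of these, 6 were estimated higher and 4 lower (median 0.046). The split was 3 higher and 7 lower without WT 1 (median -0.15) and 7 higher and 3 lower without WT 3 (median 0.24). The list includes Sox9, Lgr5, Krt15 and Cd34, which are not particular to the upper follicle or duct, and with all 6 libraries each was estimated higher. The other genes estimated higher were Lrig1 and Lgr6, and those lower were Plet1, Gata6, Prdm1 and Krt17. The stem cell genes Plet1, at 41.2 ± 3.03 CPM in IL-33 KO and 57.1 ± 18.1 CPM in WT, and Lgr6, at 25.8 ± 4.90 CPM against 18.3 ± 7.55 CPM, had the smallest p (adjusted p 0.578 and 0.621 in edgeR).

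Markers of other cell types also differed in level between the libraries. All 16 hair follicle markers were estimated higher in IL-33 KO (median 1.84 on the log2 scale), among them the inner root sheath keratin Krt72, with 452 ± 121 CPM in IL-33 KO and 98.9 ± 34.6 CPM in WT, and the regulator Dlx3, with 148 ± 43.7 and 55.6 ± 8.28 CPM (SD, n = 3 each; adjusted p 0.125 and 0.182 in edgeR). The median was 1.54 without IL-33 KO 1 and 2.47 without WT 3, with all 16 higher in each. Their summed level was 11220 to 23029 CPM in IL-33 KO and 2770 to 6401 CPM in WT. With all 6 libraries 15 of the 16 had no overlap between the genotypes, all higher, where 7.46% of tested genes had none on that side. All 16 had an unadjusted p under 0.05 in edgeR, where 4.87% of tested genes lie on the higher side. All 10 tested adipocyte markers were estimated higher (median 0.71), with a summed level of 859 to 1194 CPM in IL-33 KO and 180 to 945 CPM in WT, lowest in WT 1. The adipocyte median was 0.22 without WT 1 (8 higher, 2 lower) and 1.65 without WT 2 (10 higher). Their smallest p were those of Retn, an adipose hormone, with 17.9 ± 5.66 CPM in IL-33 KO and 8.30 ± 5.30 CPM in WT, and the lipase Lpl, with 398 ± 23.6 and 212 ± 122 CPM (adjusted p 0.556 and 0.579 in edgeR). All 8 interfollicular markers were estimated lower (median -0.50), such as Krtdap, with 922 ± 164 CPM in IL-33 KO and 1800.4 ± 736 CPM in WT, and Flg, with 836 ± 338 and 1341 ± 433 CPM (adjusted p 0.496 and 0.601 in edgeR). The interfollicular median was -0.29 without IL-33 KO 1 and -0.73 without WT 3, with all 8 lower in each. Of 6 fibroblast markers 1 was estimated higher and 5 lower (median -0.37), with Lum at 249.7 ± 13.7 CPM in IL-33 KO and 395 ± 139 CPM in WT and Dcn at 607 ± 50.7 and 839 ± 161 CPM (adjusted p 0.509 and 0.521 in edgeR). The fibroblast median was -0.059 without WT 3 and -0.54 without WT 1. Skeletal muscle markers summed to 130.4, 13.5 and 274 CPM in IL-33 KO 1, 2 and 3, against 10.5 to 12.8 CPM in WT. Acta1 averaged 33.2 ± 30.5 CPM in IL-33 KO and 0.244 ± 0.118 CPM in WT, and Ryr1 9.82 ± 5.64 and 2.99 ± 0.117 CPM (adjusted p 0.314 and 0.354 in edgeR). Muscle was thus low in IL-33 KO 2 and in all WT libraries. None of these markers passed in edgeR with all 6 libraries. In DESeq2 9 of 16 hair follicle markers and 6 of 8 muscle markers passed, all higher in IL-33 KO. There 0.976% of the 23874 genes with any count passed in either direction. In edgeR without a filter 3 of 16 hair follicle markers passed, where 29 of 23874 genes passed on the higher side. Without WT 3 it was 1 of 16, where 12 of 15991 genes passed on the higher side. Without IL-33 KO 2, 4 of 8 muscle markers passed, where 9 of 15918 genes passed on the higher side. The part of these cell types in the sebaceous gene values was not tested.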

How the data were processed

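RNA-seq of back skin, described as its epithelial region, was available for 3 IL-33 KO and 3 WT libraries, grouped by their titles. The authors deposited whole-number read counts per gene and FPKM values of 35275 genes. The submitters' processing notes name STAR, RSEM and the mm10 build. The deposited FPKM are the count over gene length and column total (largest relative deviation 2.782e-07). Annotation and strand setting are not given in the sources used here. Depth was 20459574 to 24359612 counts per library.

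The test on counts was edgeR 4.0.16 in R 4.3.3 (filterByExpr, TMM, glmQLFit, glmQLFTest, two-sided), adjusted by Benjamini-Hochberg over 15720 genes with a threshold of 0.05. Intervals of log2 fold changes are 95% and use the quasi-likelihood degrees of freedom. Scripts were tested on simulated data. Alternatives were other size factors and filters, DESeq2 1.42.0, limma 3.58.1 on log2(FPKM + 1) or log2(FPKM + 0.1), a replicate block, summed Scd counts, and each library left out. Every pair of libraries differed by more than sampling noise (chi-square of counts at least 31.7 per degree of freedom).

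The 10 genes and all lists were chosen with earlier results of these data known. Of 167 list symbols, 3 were matched through their Ensembl ID. Named are the 10 genes, Il33, in each list the genes that pass (at most 4) or else the 2 with the smallest p, and the 5 genes most like the mean of the 10. Krt14, Ucp1, Pomc and the relatives of the 10 genes were named after their values were seen. Shared sequence was counted in 50-base stretches. Figures used matplotlib 3.10.9 in Python 3.11.15.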

Additional observations from a re-analysis of the deposited data

How the results depend on the processing

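No alternative brought any of the 10 genes past the threshold. Of 161 alternative values of these genes, 142 kept the direction and 19 turned. Scd3 turned in limma with log2(FPKM + 1), filtered (0.12) or not (0.12), with log2(FPKM + 0.1) (0.18) and with the replicate number as a block (0.15). Elovl3 turned in the same limma fits (0.076, 0.076 and 0.080) and with the block (0.015). Leaving out 1 library gave -0.85 to 1.07 for Scd3, -0.48 to 0.52 for Elovl3, -0.065 to 1.13 for Scd1, -0.031 to 0.98 for Soat1 and -0.49 to 0.19 for Cidea. The number of the 10 genes without overlap was 1 to 8 over these fits. For these values, and for the counts below, the cause was not tested.

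Same-numbered libraries did not deviate together (correlations of -0.26, -0.12 and -0.38). The sources used here do not say whether they share more than a number, and these correlations cannot settle that. With the replicate block 2 genes passed over the whole table. The count over the whole table, 3 in edgeR with TMM, was 5 with upper quartile factors, 5 with total counts, 33 without a filter, 5 with a CPM filter, 233 in DESeq2, 15, 11 and 6 in the limma fits with log2(FPKM + 1), log2(FPKM + 0.1) and no filter, and 2 to 24 without 1 library. In the melanocortin list 1 gene, Mc1r, passed in DESeq2, and 0 to 1 without 1 library. DESeq2 also passed 9 of 16 hair follicle and 6 of 8 muscle markers, and without IL-33 KO 2 edgeR passed 4 of 8 muscle markers. Of 377 values of named genes in other lists, 367 kept direction and side of the threshold, 10 passed it and 0 turned. With 3 libraries per genotype, the 95% intervals of 9 of the 10 genes reach 0.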

Other observations

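The relatives of the 10 genes stood at other levels, by deposited FPKM (mean ± SD, n = 3 each). Scd2, the desaturase found in many tissues, averaged 99.6 ± 6.53 FPKM in IL-33 KO and 85.5 ± 11.9 FPKM in WT, a narrower spread than that of Scd1, and Scd4 averaged 0.237 ± 0.118 and 0.200 ± 0.0639 FPKM. Among the elongases Elovl4, which makes the very long chains of barrier ceramides, was the most abundant of 6 compared, at 379 ± 135 FPKM in IL-33 KO and 392 ± 135 FPKM in WT. Elovl6, which lengthens palmitate, averaged 92.7 ± 55.7 FPKM in IL-33 KO and 56.2 ± 56.3 FPKM in WT. Awat1, the other wax alcohol acyltransferase, averaged 21.3 ± 6.70 FPKM in IL-33 KO and 25.8 ± 18.4 FPKM in WT, above Awat2 in both genotypes. Soat2 averaged 0.607 ± 0.218 FPKM in IL-33 KO and 0.778 ± 0.176 FPKM in WT, far below Soat1. Elovl1 averaged 86.6 ± 12.5 FPKM in IL-33 KO and 112 ± 32.8 FPKM in WT, and Elovl5 33.3 ± 9.81 and 38.3 ± 30.2 FPKM. Elovl7 averaged 37.4 ± 8.92 FPKM in IL-33 KO and 38.6 ± 1.85 FPKM in WT, and Dgat1 27.2 ± 4.51 and 28.6 ± 5.26 FPKM. These genes were named as relatives of the 10 after their values were seen.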
